A study of Mus musculus with 34 samples.

Results

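Mouse liver tumours labelled subtype B were compared with liver samples that carry a guide RNA against actin together with YAPS127A. The comparison takes the 9 subtype B libraries and the 3 libraries labelled sgActin and YAPS127A, 12 of the 34 libraries of the study, picked by their source label and not by any measured value. YAPS127A is a form of the Hippo pathway coactivator YAP in which the serine that holds it in the cytoplasm is replaced, so that it stays active. An actin guide serves as a guide that does not aim at beta-catenin, and these 3 libraries are called the control below. The labels describe the tumours only as subtype B, the study's title ties its subtypes to beta-catenin whose exons are skipped after CRISPR cutting, and nothing in the labels says whether subtype B tumours also carry YAPS127A. All 12 were modelled by hydrodynamic injection, in which plasmids are pushed into hepatocytes by a rapid tail vein injection, and RNA came from frozen liver tumours as labelled, the control included. Strain, sex and age of the mice, the time after injection and whether each library is a separate mouse were not given in the sources used here, so the p-values below measure the spread between these libraries only. The 4 libraries of subtype A, the other tumour class of the study, appear where a difference from subtype B was tested.

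Beta-catenin is the transcriptional arm of the Wnt pathway. It is marked for destruction through its N-terminal phosphorylation sites, and a protein that lacks them accumulates, enters the nucleus and activates genes with TCF/LEF. In the liver, Wnt signalling sets the pericentral programme of hepatocytes, and mutations of beta-catenin are a common driver of hepatocellular carcinoma and hepatoblastoma. YAP acts through TEAD factors on genes of growth, cytoskeleton and matrix, and in hepatocytes its activity is known to bring out biliary and progenitor genes.

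The values are z-scores: each gene was centred and divided by its SD over 17 libraries, 16 of them the subtype A, subtype B and control libraries. A difference is therefore in SDs of that gene and gives no fold change, and z-scores of different genes cannot be ranked as levels. The table holds 1659 genes that the authors had selected and labelled as differentially expressed, for the skipped isoforms skip1 and skip2 and subtypes A and B. Ctnnb1 itself, Yap1 and Actb are not among them, nor are Glul, Lgr5, Krt19, Hnf4a, Ccn1 and Ccn2, so neither the guide's target nor the transgene can be checked here. Read depth per library is not known.

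By limma with Benjamini-Hochberg adjustment over all 1659 genes, 1653 genes (99.6%) differed between subtype B and the control at an adjusted p under 0.05. In subtype B, 731 (44.1%) were higher and 922 (55.6%) lower. Groups did not overlap for 1640 genes (98.9%), and 1600 (96.4%) reached the smallest p that an exact permutation of 9 against 3 libraries can give, 0.004545. The genes were selected as differentially expressed, so the selection itself favours a call. Almost every gene in the table was called, and a call alone sets no gene apart. What follows rests on which genes went which way, on how the tumours differ among themselves and on how subtype B differs from subtype A. Counts of list members below stand beside 44.1% of all genes higher and 55.6% lower. They cover only members in the table, and those left out of it could not be counted. The differences also crowd towards a limit set by the scaling. A gene whose 3 control libraries share one value and whose other 14 libraries share another would differ by 2.54 SDs. That value is a yardstick and not a strict bound, since the differences ran from -2.64 to 2.63. The median was 2.41 over the 737 genes with a higher mean in subtype B and -2.59 over the 922 with a lower one.

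Before the genes, 3 features of the libraries bear on all results. Subtype B replicate 1 had the lowest median correlation across genes with the other subtype B libraries, 0.546. Replicates 6 (0.631), 2 (0.638) and 3 (0.683) followed, and the other 5 lay between 0.739 and 0.765. Replicate 6 was the subtype B library nearest to the control for 378 of the 922 lower genes and replicate 1 for 210, and of the 737 higher genes replicate 1 was the lowest for 205 and replicate 6 for 166. Without replicates 1 and 6, 1651 genes were called, 729 higher and 922 lower. Subtype A replicate 1 resembled its own group little (median correlation 0.126, against 0.531 to 0.554 for the other 3). On the first principal component of the 16 libraries, which held 88.6% of the variance, the control lay at 75.6 to 78.7, subtype A between -10.3 and -0.317 and subtype B between -27.1 and -17.5.

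Promoter sequence is shown for genes on which the results turn, with a short motif marked in each. Whether a motif bears on how a gene moved was not tested. The 250 bases before the start of each gene are from RefSeq on GRCm38.p6, read 5′ to 3′ on the gene's own strand. For Alb, Afp, Ajuba, Ccnb2 and Mki67 the RefSeq start lies upstream of the GENCODE start used for positions below. The Alb window, for one, ends at 90460869 and its GENCODE start is 90460897. Alb and Afp, the albumin and alpha-fetoprotein genes of adult and fetal hepatocytes, lie next to each other on chromosome 5 and went opposite ways in subtype B. Capitals mark GTTAAT, the half-site read by the hepatocyte factor HNF1, searched on both strands (ATTAAC on the other).
Alb, chr5:90460620-90460869, plus strand: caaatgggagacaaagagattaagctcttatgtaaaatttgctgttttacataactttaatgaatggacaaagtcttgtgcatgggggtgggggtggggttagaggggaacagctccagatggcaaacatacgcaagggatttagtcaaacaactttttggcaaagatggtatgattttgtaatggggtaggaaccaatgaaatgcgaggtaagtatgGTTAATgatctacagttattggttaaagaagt
Afp, chr5:90490464-90490713, plus strand: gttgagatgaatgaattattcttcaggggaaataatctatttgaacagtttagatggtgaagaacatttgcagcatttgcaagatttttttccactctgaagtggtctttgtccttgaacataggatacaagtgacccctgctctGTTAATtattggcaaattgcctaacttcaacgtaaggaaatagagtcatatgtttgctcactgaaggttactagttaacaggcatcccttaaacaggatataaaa
GTTAAT occurs once in each window, 32 bases before the RefSeq start in Alb and 105 before that of Afp. It was found in 6.43% of 32851 mouse promoters and in 6 of the 10 hepatocyte markers with a promoter in the set.

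Ptpn14 and Ajuba encode regulators of Hippo signalling, and both are known YAP targets. Capitals mark GGAATG, the core read by TEAD factors, or its reverse complement CATTCC.
Ptpn14, chr1:189728018-189728267, plus strand: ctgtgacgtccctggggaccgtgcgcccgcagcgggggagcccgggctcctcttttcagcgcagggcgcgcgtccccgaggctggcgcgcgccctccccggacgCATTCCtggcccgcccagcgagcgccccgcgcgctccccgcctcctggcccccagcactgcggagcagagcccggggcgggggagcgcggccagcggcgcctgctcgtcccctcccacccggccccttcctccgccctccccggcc
Ajuba, chr14:54577662-54577911, minus strand: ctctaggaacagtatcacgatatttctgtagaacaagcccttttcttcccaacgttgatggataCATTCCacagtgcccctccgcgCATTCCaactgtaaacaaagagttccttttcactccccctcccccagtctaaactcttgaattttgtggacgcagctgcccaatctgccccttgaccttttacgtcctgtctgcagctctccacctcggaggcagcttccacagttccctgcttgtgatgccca
The motif occurs in 12.6% of promoters, and in 5 of the 8 YAP and TEAD targets with a promoter. Ccnb2 (cyclin B2) and Mki67 (the proliferation antigen Ki-67) stand for the mitotic genes. Capitals mark CCAAT, the box bound by NF-Y, or ATTGG on the other strand.
Ccnb2, chr9:70421555-70421804, minus strand: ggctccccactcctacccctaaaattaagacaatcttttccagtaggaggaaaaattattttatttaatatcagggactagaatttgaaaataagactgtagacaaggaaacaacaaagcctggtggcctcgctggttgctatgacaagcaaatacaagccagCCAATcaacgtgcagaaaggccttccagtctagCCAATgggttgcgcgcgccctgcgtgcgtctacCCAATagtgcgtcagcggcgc
Mki67, chr7:135716380-135716629, minus strand: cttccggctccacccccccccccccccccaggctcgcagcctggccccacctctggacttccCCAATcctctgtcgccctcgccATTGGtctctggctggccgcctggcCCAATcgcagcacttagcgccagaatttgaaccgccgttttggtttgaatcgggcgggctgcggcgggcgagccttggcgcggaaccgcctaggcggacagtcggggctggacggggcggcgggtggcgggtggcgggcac
Each of these holds 3 boxes. For the class II antigen presentation genes H2-Aa and H2-Eb1, which separated 2 tumours from the other 7, the same box is marked.
H2-Aa, chr17:34287824-34288073, minus strand: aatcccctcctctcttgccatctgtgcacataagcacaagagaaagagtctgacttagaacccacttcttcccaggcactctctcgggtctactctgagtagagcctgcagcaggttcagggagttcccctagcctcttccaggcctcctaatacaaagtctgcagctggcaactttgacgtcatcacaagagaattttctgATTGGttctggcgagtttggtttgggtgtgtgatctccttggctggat
H2-Eb1, chr17:34305617-34305866, plus strand: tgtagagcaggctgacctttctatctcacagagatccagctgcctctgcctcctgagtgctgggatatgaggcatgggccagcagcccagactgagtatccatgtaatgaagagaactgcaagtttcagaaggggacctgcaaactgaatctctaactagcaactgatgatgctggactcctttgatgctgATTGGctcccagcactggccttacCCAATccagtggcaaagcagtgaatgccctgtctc
H2-Aa holds 1 box and H2-Eb1 holds 2. CCAAT occurs in 33.8% of promoters, in 16 of 19 cell cycle genes with a promoter and in 6 of 7 antigen presentation genes. For each motif a listed gene counted if any of its promoters matched, while the share of all promoters counts every promoter singly. The list counts and those shares are therefore not like measures. A match says only that these letters are in the window.

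Hepatocyte genes were lower in every subtype B tumour than in every control library. All 13 measured hepatocyte markers, of 21 listed, fell (list median -2.57, against -2.46 over all 1659 genes). Alb (chromosome 5, 90460897 to 90476602) stood at 2.66, 1.72 and 1.73 in the control and between -0.62 and -0.42 in subtype B (median -0.48), a difference of -2.54 (SE 0.15, limma adjusted p = 7.01e-11). The widest gap between neighbours thus lay between the groups, while the 9 tumours spanned a narrow band. Apob, the structural protein of very low density lipoprotein (chromosome 12, 7977648 to 8016835), stood at 1.96, 1.99 and 2.11 against -0.82 to -0.41 (median -0.65). Asgr1, a subunit of the hepatocyte's asialoglycoprotein receptor, fell by 2.64, and Serpinc1, antithrombin, differed by -2.64. In bulk tissue, fewer hepatocytes and less RNA of these genes per hepatocyte cannot be told apart.

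The metabolic lists of the hepatocyte went the same way. Urea cycle and amino acid catabolism held 25 measured members, all lower. Cps1, which makes carbamoyl phosphate for the urea cycle, stood at 1.84, 1.96 and 2.34 in the control and between -0.60 and -0.50 in subtype B. Fah and Hpd, enzymes of tyrosine breakdown, fell by 2.62 each. All 16 periportal genes and 4 of 5 pericentral ones were lower, so both ends of the lobule's zonation were represented among the genes that fell. The exception was Ahr. Among the pericentral genes Cyp1a2, a drug and oestrogen oxidase, ran from -0.68 to -0.18 in the tumours against 1.95 to 2.26 in the control, and Oat, ornithine aminotransferase, from -0.64 to -0.23 against 1.51 to 2.39. Replicate 6 was the highest tumour for both. Of gluconeogenesis and glycogen genes 6 of 6 fell, including Fbp1 (-2.62) and Pck1 (-2.51), which encode the bisphosphatase and carboxykinase steps of glucose synthesis. Pck1 in the control was at 1.58, 1.57 and 2.87.

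Of the drug metabolism genes, 20 of 20 measured cytochrome P450 genes of families 1 to 3 (46 listed) fell. So did 26 of 26 measured conjugation enzymes (54 listed), beside 55.6% of all genes. Cyp2c50 (-2.62), Cyp3a25 (-2.61) and Glyat, a glycine conjugase (-2.63), were among them. Cyp2b10, the main target of the xenobiotic receptor CAR, stood at 3.14, 0.82 and 1.77 in the control and between -0.43 and -0.36 in subtype B, where 5 libraries shared the lowest value. With each library's median subtracted it was not called (-0.28, limma adjusted p = 0.3959). In the study's other libraries every such tie at the lowest z-score (370 of 370 genes) was a set of libraries listed at a count of 0. Several of these P450 genes have close paralogs, and how reads were shared among them is not known.

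Bile acid genes were lower in 14 of 15 cases, the exception being Abcc4, an efflux pump. Abcb11, the bile salt export pump (-2.63), Baat, which joins bile acids to taurine (-2.64), and Nr1h4, the bile acid receptor FXR (-2.63), fell. Nr0b2, the FXR-induced repressor SHP, was less uniform: the control stood at 1.88, 0.18 and 2.50 and the tumours between -0.89 and 0.52. Its groups overlapped through subtype B replicate 1 and control replicate 2 (difference -1.99, limma adjusted p = 9.68e-05), and with each library's median subtracted it differed by 0.05. That subtraction moved the median difference of all genes from the control from -2.46 to -0.41. It raised every gene's difference from the control by the same amount. A library's median here follows the mix of selected genes (922 of 1659 lower), so a call lost or gained there checks no single gene. By their means 13 of the 15 bile acid genes then stayed lower than in the control.

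Mitochondrial genes were lower too. All 25 measured genes of the respiratory chain were lower than in the control (median -2.61), and all 25 were also lower than in subtype A by their means (23 after median subtraction and 22 with quantile normalization). Cycs, cytochrome c, stood at 2.21, 1.85 and 2.05 in the control, between -0.38 and -0.07 in subtype A and between -0.69 and -0.52 in subtype B. The 3 groups did not overlap. Atp5b, a subunit of ATP synthase, fell by 2.62. Fatty acid oxidation was lower in 12 of 14 genes, among them Hadha (-2.62) and Acadvl (-2.62), enzymes of the oxidation spiral, and higher in Acot2 and Vnn1. Glycolysis genes split, with 4 lower and 2 higher. Gapdh fell by 2.63, a value open to reads from its many pseudogenes, while Pkm, the pyruvate kinase of proliferating cells, rose by 2.30 (-1.93, -2.01 and -1.76 in the control, -0.19 to 0.85 in the tumours). The other gene that rose was Slc16a3, a lactate exporter.

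Secreted liver products fell widely. Coagulation and complement were lower in 24 of 25 genes, among them the prothrombin gene F2 (-2.63), and apolipoproteins and lipoprotein handling in 16 of 17, among them Apoc3 (-2.62) and Lcat, which esterifies plasma cholesterol (-2.63). All 6 measured iron, copper and heme genes fell, among them Tfr2, a hepatocyte sensor of iron-bound transferrin (-2.62). Genes of growth factor signalling mostly rose instead, with 6 of 9 higher and 3 lower (list median 2.42). The 3 that fell were Ghr, the growth hormone receptor (-2.60), Igfals, the carrier subunit of circulating IGF (-2.62), and Egfr (-2.61). Erbb2, a receptor of the same family as Egfr, rose by 2.57, with control libraries at -1.77, -1.95 and -1.99 and tumours between 0.15 and 1.13.

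Genes with known male bias in mouse liver, which depend on pulsed growth hormone, were measured in 21 of 21 cases and were all lower (median -2.56). This list was written with earlier results of these data known, and every member was measured, against 5 of 23 female-biased ones. Its uniform direction is therefore no independent support. Mup20, a urinary pheromone protein, stood at 2.11, 1.31 and 1.93 in the control and between -0.89 and -0.53 in subtype B. Mup3 (-2.59) and Cyp2d9 (-2.59) fell too, as members of families with near-identical copies. Of 5 female-biased genes 3 were higher, 1 lower and 1 not called, so the lists did not mirror each other gene by gene. The labels do not give the sex of the mice, and whether it moved with the groups was not tested.

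Acute-phase genes were uneven across the control. All 10 measured members were lower in subtype B, and the mean of the list was 0.86, 1.68 and 2.79 in control replicates 1, 2 and 3, against -0.54 to -0.42 in the tumours. Saa1, a serum amyloid protein of inflammation, stood at -0.31, 1.22 and 3.60 in the control and between -0.34 and -0.33 in every tumour (difference -1.84, SE 0.48, limma adjusted p = 0.0016). The SE of Saa1 pools the spread of all groups, whereas the control libraries scattered far more than the tumours. Control replicate 1 lay within 0.1 SD of the tumours and replicate 3 carried most of the difference. Saa2 ran -0.30, 0.75 and 3.75 in the control and Orm2, an orosomucoid, -0.28, 1.30 and 3.55. Without control replicate 3 the differences were -0.79 for Saa1, -0.53 for Saa2 and -0.88 for Orm2. With each library's median subtracted they turned to 0.21, 0.34 and 0.15 and were not called, nor were they with quantile normalization (-0.49, -0.62 and -0.50). After median subtraction 6 of the 10 members stayed lower than in the control by their means. Hamp, the iron hormone hepcidin, had the opposite order in the control, 2.31, 2.32 and 1.12, and lost its call after median subtraction (-0.48, limma adjusted p = 0.06915). Crp stood at 1.80, 1.69 and 2.56. The plot of acute-phase genes shows this spread beside Alb and Apob.

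**Figure D1:**
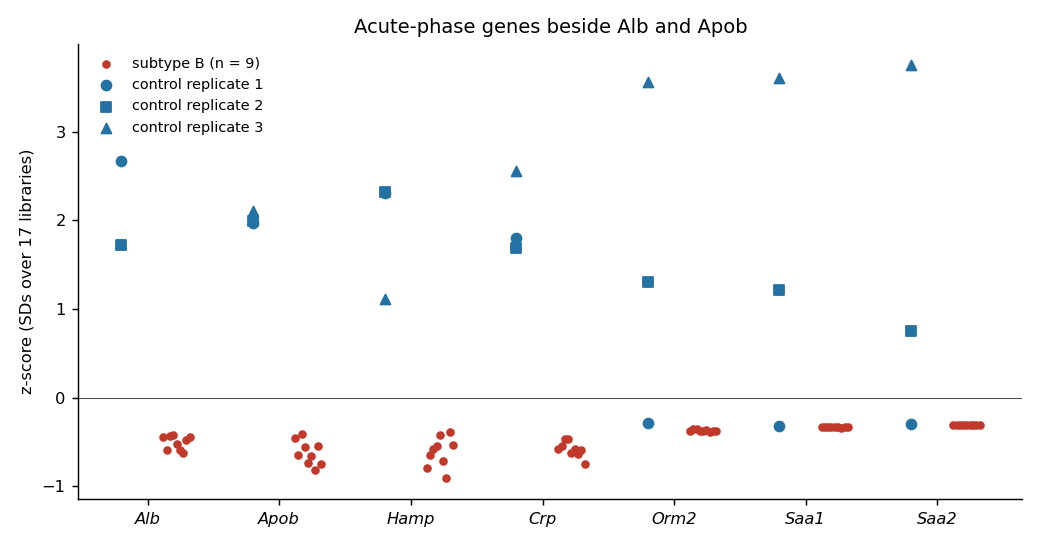
Z-scores (vertical axis, SDs over 17 libraries) of 2 hepatocyte genes and 5 acute-phase genes in the 3 control libraries (blue, 1 symbol per replicate) and the 9 subtype B tumours (red points). Control replicate 1 sits at the tumours' level for Orm2, Saa1 and Saa2 (-0.28, -0.31 and -0.30) and far above it for Alb (2.66).

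Lipid synthesis genes set 1 tumour apart. Of 9 measured cholesterol and fatty acid synthesis genes 8 were lower. Acly, which supplies cytosolic acetyl-CoA, stood at 2.28, 1.65 and 2.10 in the control and between -0.78 and -0.43 in 8 tumours, but at 0.18 in replicate 1. Pnpla3, a lipase-like gene induced by insulin, was the member that rose: replicate 1 was at 3.26, the other tumours between -0.52 and 0.50, and the control between -1.39 and -1.03. Its call (1.43, limma adjusted p = 0.023, exact permutation p = 0.0727) was lost without control replicate 2 or 3 and with array weights per library or per group. Scd2, a stearoyl-CoA desaturase, reached 3.20 in replicate 1 and lay between -0.66 and 0.59 in the remaining tumours. It was not called (0.84, limma adjusted p = 0.193, and 0.45 without replicate 1), but was after median subtraction (2.89). The mean of the 8 lower genes was 0.12 in replicate 1 and between -0.88 and -0.31 in the others.

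Wnt genes were among those that rose. Of 17 listed target and feedback genes of the pathway 5 were in the table, and all 5 were higher. Axin2, the scaffold that limits beta-catenin and a direct target of it (chromosome 11), stood at -1.47, -1.42 and -1.49 in the control and between 0.02 and 2.21 in subtype B (median 0.51), a difference of 2.14 (SE 0.38, limma adjusted p = 4.67e-05). Replicate 6 was by far the highest tumour and replicate 7 followed at 1.04. Tnfrsf19, also called Troy, rose by 2.43, Myc by 2.48, Cd44 by 2.42 and Ccnd1 by 1.88. Replicate 7 had the highest Tnfrsf19 (1.41) and Ccnd1 (0.94), whereas Cd44 was lowest in replicate 6 (-0.44). The list mean was highest in replicate 7 at 0.87 and lowest in replicate 1 at 0.28.

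YAP and TEAD targets were higher in subtype B in 11 of 11 measured cases, of 41 listed (median 2.49), beside 44.1% of all genes. By its label, the control carries active YAP too. Ptpn14 (chromosome 1) stood at -1.87, -1.98 and -1.93 in the control and between 0.30 and 1.17 in subtype B (median 0.71). Myof, a membrane repair protein, rose by 2.57, Gadd45b, a stress-response gene, by 2.52, and Ajuba by 2.45. Ankrd1, a nuclear ankyrin protein widely used as a readout of YAP, rose by 2.11, with tumours between -0.34 and 1.11 and the control between -1.62 and -1.61. For Ptpn14 and Myof subtype B also lay above every subtype A library.

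Biliary genes rose in 18 of 19 measured cases, of 41 listed, beside 44.1% of all genes. Sox9, a factor of bile duct and progenitor cells, stood at -1.88, -1.75 and -1.86 in the control and between -0.45 and 1.20 in the tumours (difference 2.29). Spp1, osteopontin, stood at -1.79, -1.80 and -1.78 against -0.45 to 1.50. Replicate 6 was the lowest tumour for both. Sox4 (2.53), Bicc1, an RNA-binding protein of ductal cells (2.52), Ddr1, a collagen receptor (2.55), and Itga3, a laminin receptor subunit (2.55), moved likewise. Aqp1, a water channel of bile duct cells and endothelium, was the member that fell (2.18, 1.47 and 2.04 in the control, -0.84 to -0.02 in the tumours), and after median subtraction it was not called (-0.41, limma adjusted p = 0.06031). Jag1, a Notch ligand, rose by 2.46. The list's mean over its 18 higher genes spread from 0.09 in replicate 6 to 1.27 in replicate 9. Epcam, the epithelial adhesion molecule, ran from -0.46 in replicate 1 to 2.15 in replicate 9, and St14, the protease matriptase, from -0.36 to 2.21 with the same tumour on top. Whether these genes come from bile duct cells in the tissue or from the tumour cells was not tested. Of the 7 measured cholangiocyte markers 6 were higher and Aqp1 lower.

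Oncofetal genes were mixed: of 13 measured, 9 were higher, 2 lower and 2 not called. Afp stood at -1.22, -1.18 and -1.26 in the control. In subtype B it was at -0.60, -0.17, -0.04, 0.76, 1.31, -0.22, 1.44, -0.19 and 2.51 in replicates 1 to 9, so that 4 tumours were above 0.7 and 5 below 0. The difference was 1.75 (SE 0.50, limma adjusted p = 0.00326, exact permutation p = 0.01818). With a weight per group in the fit, the limma adjusted p was 0.0601. Gpc3, a glypican of hepatocellular carcinoma, rose by 2.31, and Igf2bp1, which binds fetal mRNAs, by 2.52, with tumours between 0.07 and 0.79. For Igf2bp1, 2 control libraries shared the lowest value. Igf2bp3, its paralog, followed other tumours than Afp: replicates 1 and 9 were at 2.00 and 1.67, and the rest lay between -0.61 and 0.74. H19, an imprinted RNA of fetal liver, lay between -0.32 and 0.05 in subtype B, at -0.35 in each control library, and was not called (0.13, limma adjusted p = 0.166), although its groups did not overlap. It was called after median subtraction (2.18, limma adjusted p = 5.015e-12) and with quantile normalization (0.57, limma adjusted p = 0.0154).

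Cell cycle genes rose in 24 of 25 measured cases, of 61 listed (median 2.40), beside 44.1% of all genes. Mki67 (chromosome 7) stood at -1.90, -1.89 and -1.92 in the control and between 0.07 and 1.23 in subtype B (median 0.53), a difference of 2.50 (SE 0.24, limma adjusted p = 2.91e-08). Ccnb2 rose by 2.45 and Prc1, a bundler of spindle microtubules, by 2.46. Replicate 9 had the highest value of all 3 genes. Mcm10, a replication factor, was the member that fell (2.45, 2.13 and 1.60 in the control, -0.58 to -0.37 in the tumours). Over the 24 members called higher, the mean was 1.19 in replicate 9 and 0.98 in replicate 7, and 0.01 and -0.05 in replicates 1 and 2. Over all 25 members it ran from -0.07 to 1.12 in subtype B and from -1.70 to -1.64 in the control.

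Matrix genes rose in 28 of 31 measured cases, of 81 listed. Genes of TGF beta, epithelial-mesenchymal transition and cytoskeleton rose in 25 of 25, of 68 listed, beside 44.1% of all genes. Col4a1 and Lamc1, collagen IV and laminin chains of the basement membrane, rose by 2.60 and 2.58. Col3a1, a fibrillar collagen of stellate cells and fibroblasts, rose by 2.35 and spread from -0.08 in replicate 6 to 1.46 in replicate 5. Dcn, the matrix proteoglycan decorin, fell (1.96, 1.80 and 2.09 in the control, -0.87 to -0.06 in the tumours), as did Col5a3 and Lama3. Flna (2.59), Msn (2.55) and S100a11 (2.56), which crosslink actin, tie it to the membrane and bind calcium, were the leading cytoskeletal genes. Of 7 stellate and fibroblast markers 5 were higher and 2 lower, and the mean over all 7 was -0.15 to 0.67 in the tumours and -0.73 to -0.58 in the control. Their part in the matrix list was not tested.

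**Figure D2:**
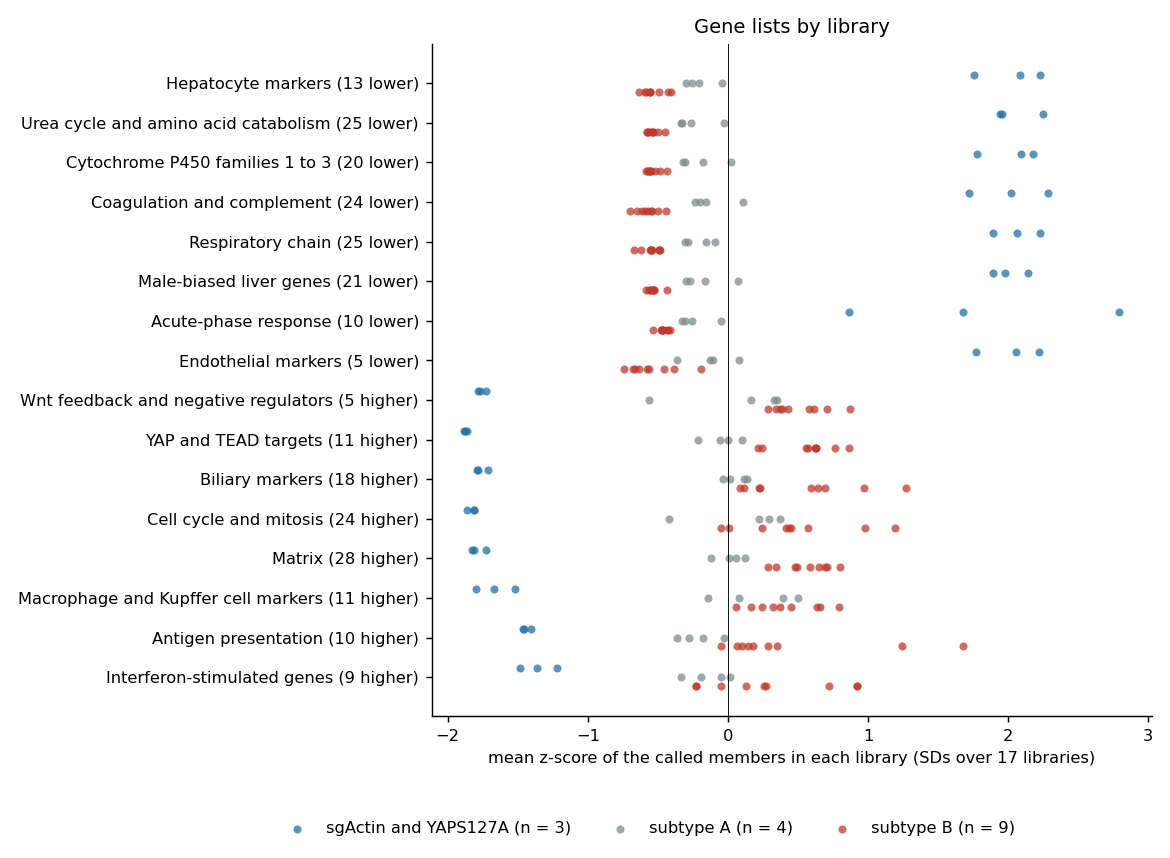
Mean z-score (horizontal axis, SDs over 17 libraries) of the called members of 16 gene lists in each control (blue), subtype A (grey) and subtype B (red) library, with the number of genes and their direction against the control in brackets. Subtype B sits within a narrow band for hepatocyte lists (-0.64 to -0.41 for hepatocyte markers) and a wide one for antigen presentation (-0.05 to 1.68), and acute-phase genes spread in the control (0.86 to 2.79).

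Markers of other liver cells also moved. Of 6 endothelial markers 5 fell. Kdr, the VEGF receptor (2.18, 1.87 and 2.00 in the control), lay between -0.72 and -0.13 in the tumours, and Clec4g, a lectin of sinusoidal endothelium, between -0.69 and -0.15. Replicate 6 was the highest tumour for both. Cd34, a marker of continuous capillaries, was the member that rose (2.48), from -1.90 to -1.74 in the control to -0.01 to 1.10 in subtype B.

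Macrophage genes were higher in 11 of 12 cases. Trem2, a receptor of lipid-associated macrophages, stood at -1.77, -1.72 and -1.56 in the control and between -0.09 and 1.78 in subtype B, and Cx3cr1, the fractalkine receptor, rose by 2.47. Clec4f, which marks resident Kupffer cells, fell (1.15, 2.01 and 2.57 in the control), with 8 tumours between -0.77 and -0.42 and replicate 6 at 0.04. None of the listed lymphocyte (T, NK and B cell) or neutrophil markers is in the table, so those cells could not be followed by them. The mean over all 12 measured macrophage genes, given here beside the immune lists that follow, was 0.00 to 0.67 in subtype B and -1.55 to -1.18 in the control. Its part in them was not tested.

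Antigen presentation split the tumours. Of 12 measured genes 10 rose and 2 fell. H2-Aa, a class II chain, stood at -1.36, -1.37 and -1.40 in the control, at 1.71 and 1.99 in subtype B replicates 2 and 3 and between -0.36 and 0.36 in the other 7. Ciita, the master activator of class II genes, was at 1.88 and 1.90 in the same pair, at 0.84 in replicate 1 and between -0.38 and 0.03 elsewhere. H2-Eb1 was at 1.74 and 1.91. All tumours still lay above the control, and H2-Aa differed by 1.81 (SE 0.42, limma adjusted p = 0.000627). Cd247, the zeta chain of the T cell receptor complex, was highest in the same pair (1.87 and 2.50, other tumours -0.69 to 0.39), and its call was lost without control replicate 2 and with array weights per library (limma adjusted p = 0.05551) or per group (0.1449). Its difference was 1.40, and 0.89 without both tumours. H2-Q10, a class I protein secreted by hepatocytes, fell by 2.62.

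Interferon-stimulated genes rose in 9 of 9 cases but with the lowest median of the lists that rose throughout (1.69). Mx1, an antiviral GTPase, was at 1.42 and 1.51 in replicates 2 and 5, at -0.63 in replicate 1 and between -0.14 and 0.84 in the rest, against -1.46 to -1.21 in the control. Usp18, which restrains interferon signalling, was highest in replicates 9 (1.87) and 5 (1.31), and its control libraries spread from -2.20 to -0.81. The tumours with high class II genes were thus only in part those with high interferon genes. NF-kB genes were more even. Nfkb2 rose by 2.54 and Relb by 2.51, as did 10 of 11 members of that list.

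**Figure D3:**
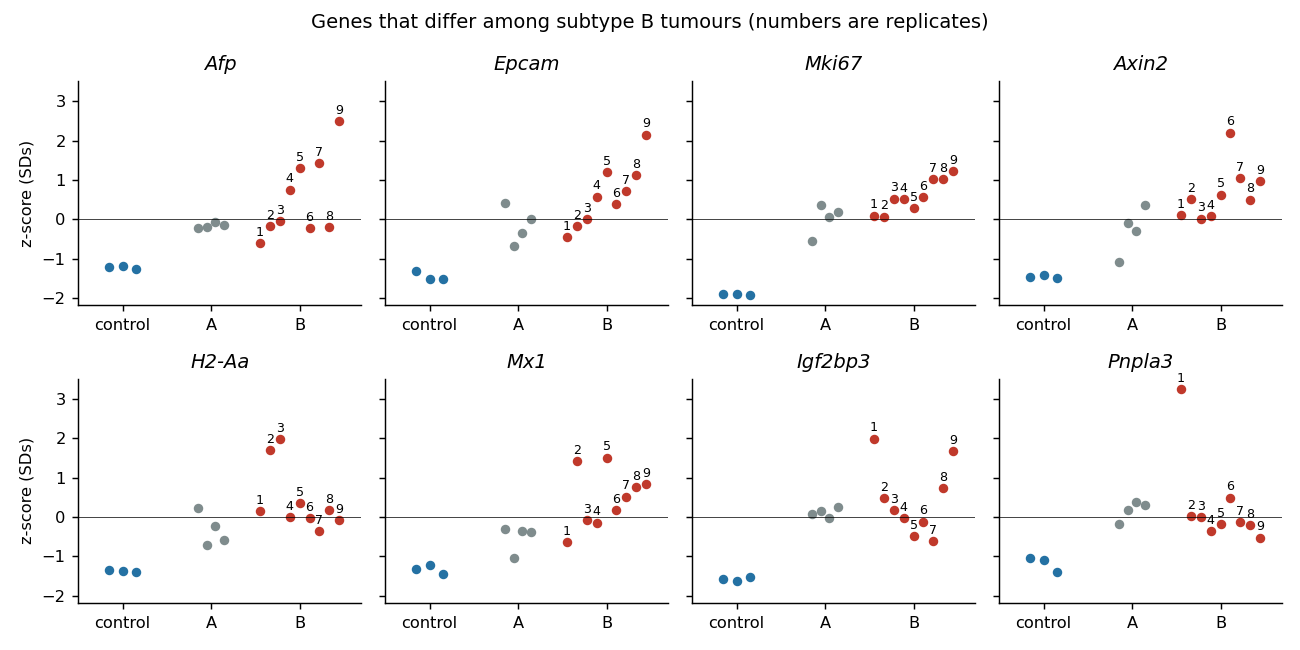
Z-scores (vertical axes, SDs over 17 libraries) of 8 genes in the control (blue, n = 3), subtype A (grey, n = 4) and subtype B (red, n = 9), with replicate numbers beside the subtype B points. Different tumours lead for different genes: replicate 9 for Afp (2.51) and Epcam (2.15), 6 for Axin2 (2.21), 2 and 3 for H2-Aa, and 1 for Pnpla3 (3.26).

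Among called genes whose groups did not overlap, chosen by size of difference, those that rose most were held evenly by all tumours. Pacs1, a sorting adaptor (2.63), Ccdc120 (2.63), Fry (2.62) and Klf6, a zinc finger factor (2.61), were among them. Ccdc120 ran from 0.37 to 0.82 in subtype B and from -2.05 to -2.01 in the control. Because the scaling limits the size of a difference, these genes stand out by a small spread rather than by a large change. The genes with the largest spread among the tumours included Pkp3, a desmosomal plakophilin, which ran from -1.15 in replicate 5 to 2.14 in replicate 9. Replicates 5 and 8 (-1.15 and -1.13) lay under all 3 control libraries (-1.10 to -1.02), and its call (1.31, limma adjusted p = 0.0414, exact permutation p = 0.0909) was lost without subtype B replicate 1, 4 or 7 or any one control library, with array weights, with quantile normalization and with only the compared groups in the fit. The 6 genes that were not called, named here after their values were seen, were H19, Scd2, 1700120E14Rik, Tmeff2, Cux2 and A430089I19Rik. Of these, 1700120E14Rik was at 2.53 and 2.40 in replicates 1 and 2 and Tmeff2 at 1.94 and 1.87 in replicates 6 and 7. The other tumours reached at most 0.54 and -0.30. Without subtype B replicate 4 or 5, 1700120E14Rik was called (1.34 and 1.33). All 6 were called after median subtraction and with normal scores of the ranks. Median subtraction raised every difference alike and normal scores called all 1659 genes, so neither setting singles these 6 out. Cux2 and A430089I19Rik were also called with only the compared groups in the fit (limma adjusted p = 0.04431 and 0.03936). For A430089I19Rik the 3 control libraries and 1 tumour shared the lowest value.

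Among the 9 tumours alone, the first principal component held 33.1% of the variance and the second 20.8%. Replicates 1, 2 and 3 lay at 12.8, 10.3 and 6.71 on the first, with replicates 9 (-11.0) and 7 (-9.25) at the other end, and replicate 6 (12.9) was farthest out on the second. No label splits subtype B further, so this order was not tested. The spread itself followed the level. For genes higher in subtype B the median SD within a group was 0.434 in subtype B, 0.340 in subtype A and 0.0768 in the control. For genes that were lower it was 0.0980, 0.140 and 0.248. The fit used a common spread per gene for all groups. For lower genes its SEs and p-values against the control therefore tend to be too small. The scale of the values before z-scoring was not given in the sources used here. In the other 18 libraries the deposited z-scores had like spreads at high and low levels (0.505 and 0.551 for genes higher with dN90, a truncated beta-catenin), whereas z-scores recomputed from linear normalized counts did not (0.816 and 0.274). A spread that grows with the level is what the subtype table shares with the linear counts, and its part in the wide spread of higher genes in subtype B was not tested.

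**Figure D4:**
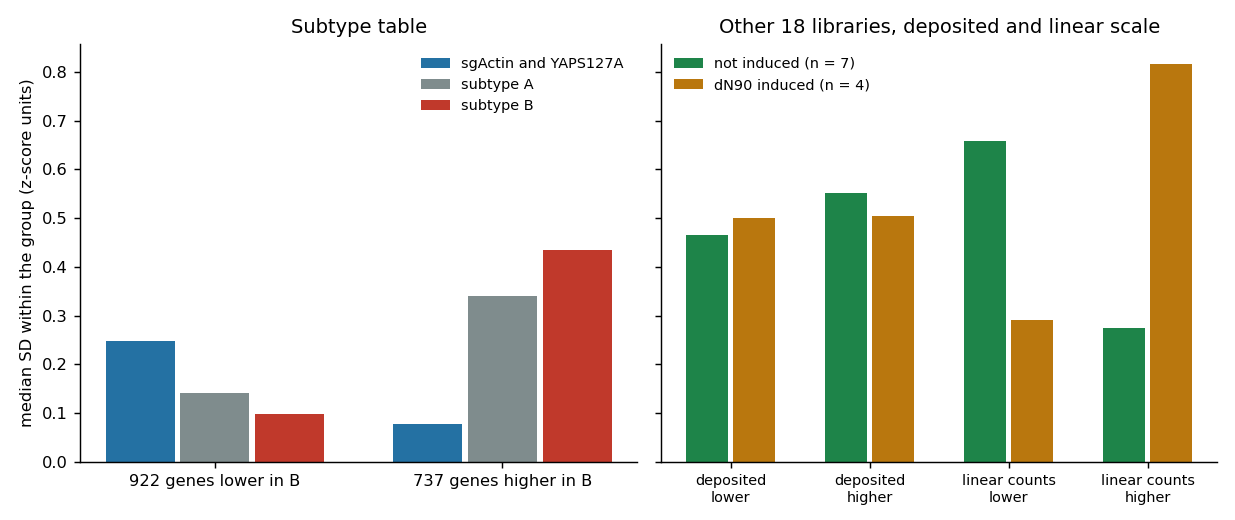
Median SD within a group (vertical axis, z-score units) of genes by direction: left, in control, subtype A and subtype B libraries; right, in 7 libraries without and 4 with induced dN90 for the deposited z-scores and for z-scores of linear counts. On the left the group with the higher level has the wider spread (0.434 against 0.0768 for genes higher in subtype B), as for linear counts on the right.

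The difference between subtype B and subtype A tests which of these features separate the tumour classes, with no control library in the contrast itself. Limma called 1014 of 1659 genes (61.1%), 346 higher and 668 lower in subtype B, and 1106 at an unadjusted p under 0.05. With each library's median subtracted the split was 472 higher and 116 lower, so the excess of lower genes depended on the scaling, and with quantile normalization it was 195 and 249. Without subtype A replicate 1, 764 genes were called. Groups did not overlap for 645 genes (38.9%).

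Among hepatocyte genes, the largest gaps were in genes that stood above 0 in at least 3 of the 4 subtype A tumours. Slc30a10, a manganese exporter, stood at 1.41, 0.06, 0.26 and 0.41 in subtype A and between -0.91 and -0.55 in subtype B (difference -1.27, SE 0.19, limma adjusted p = 0.000419). Mup20 stood at 0.76, 0.22, 0.06 and 0.64 against at most -0.53 (-1.11), Aqp8, a water channel, at 0.77, -0.03, 0.41 and 0.65 against at most -0.40 (-1.15), and Ces2e, a carboxylesterase, differed by -1.04. Apob (-0.58), Serpinc1 (-0.54) and Cycs (-0.39) were lower too. Igfals (-0.32), Kdr (-0.45), Clec4g (-0.48) and Cycs lost the call after median subtraction. Kdr, Igfals and Cycs also lost it with quantile normalization. By list, 22 of 25 coagulation and complement genes were called lower than in subtype A. So were 20 of 25 of amino acid catabolism and 16 of 17 of lipoprotein handling, beside 40.3% of all genes. Nearly all members of these lists were also lower than the control, whereas the 40.3% covers genes of either direction against it. By their means 24, 24 and 17 members of these lists were lower than in subtype A, which became 21, 15 and 16 after median subtraction and 23, 17 and 17 with quantile normalization.

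Genes higher in subtype B than in subtype A included Sema3c, a guidance factor (0.19 to 1.34 against -1.20 to 0.22, difference 1.32). St14 was above every subtype A library in all 9 tumours (1.12). Ptpn14 (0.71) and Ankrd1 (0.80), 2 of the 8 members of the YAP and TEAD list called higher of 11 (beside 20.9% of all genes), followed, though Ankrd1 lost its call without subtype A replicate 3 or 4. All 11 list members were already higher than the control, whereas the 20.9% covers genes of either direction against it. Trem2 was higher than in subtype A by 0.92, Igf2bp1 by 0.57, Axin2 by 0.95, Mx1 by 1.01 and Mki67 by 0.58. The calls of Axin2 and Mki67 were lost without subtype A replicate 1 (0.68 and 0.39) or replicate 3, and that of Mx1 without replicate 2 (0.83). With quantile normalization Axin2, Mki67 and Igf2bp1 were not called. Mki67 was not called by the exact permutation test either (adjusted p = 0.06176). Of cell cycle genes 2 of 25 were called, so most of that list did not pass the test between the classes.

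In 5 named genes subtype B lay between the control and subtype A. Gpnmb, a lysosomal glycoprotein of macrophages, stood at 0.90, 2.45, 1.11 and 1.19 in subtype A, between -0.70 and 0.49 in subtype B and between -1.35 and -1.13 in the control (subtype B minus subtype A -1.59, SE 0.27, limma adjusted p = 0.000787). Folh1, glutamate carboxypeptidase II (-1.26), Cd14, the lipopolysaccharide coreceptor (-1.05, and -0.66 without subtype A replicate 3), Wfdc2 (-1.01) and Prom1, a progenitor surface protein (-0.91), did the same. Against the control, the call of Folh1 (1.07) was lost with array weights per library (limma adjusted p = 0.05237) or per group (0.1122) and with quantile normalization (0.1881), and that of Gpnmb (1.05) with quantile normalization (0.06728). Of the control libraries, 2 shared the lowest value for Folh1. Gpnmb and Cd14 are in the macrophage list, and Trem2 and Cx3cr1 of that list went the other way. Of its 12 genes 3 were called higher and 3 lower in subtype B than in subtype A, shares near or under those of all genes (20.9% and 40.3%).

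**Figure D5:**
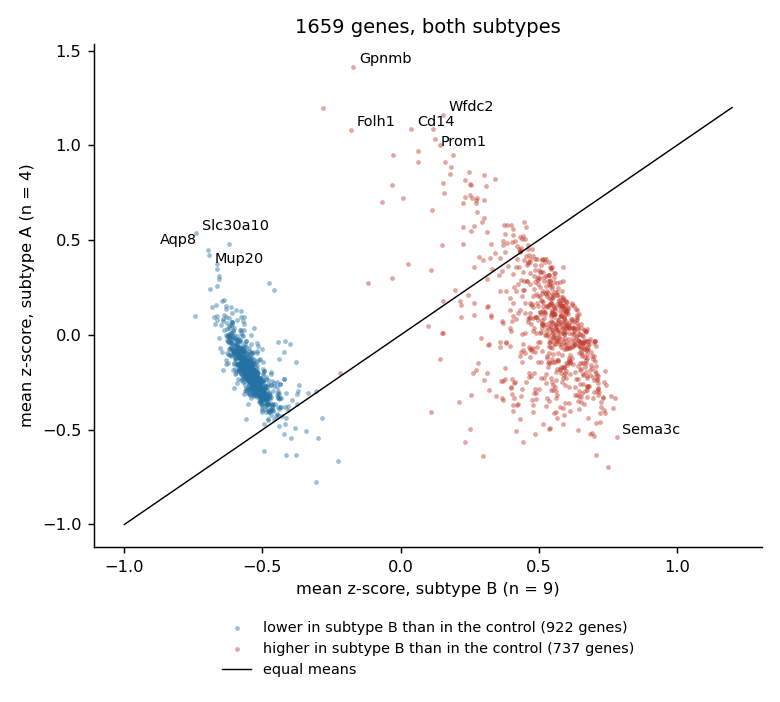
Mean z-score in subtype A (vertical axis, n = 4) against subtype B (horizontal axis, n = 9) for 1659 genes, coloured by direction against the control, with equal means on the line. Most genes lower than in the control lie above the line and most higher ones below it, and the labelled Gpnmb, Folh1, Wfdc2, Cd14 and Prom1 are higher in both classes than in the control but highest in subtype A.

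The 4 groups with skipped isoforms in the other table shared no library with this comparison and were read beside it as log2(normalized count + 1), induced minus isoform alone, without a test. Of the 731 genes higher in subtype B, 720 (98.5%) were higher in skip1 induced samples (median 1.28) and 703 (96.2%) in skip2 induced ones (median 1.67). Of the 922 lower genes, 883 (95.8%) were lower with skip1 (median -0.80) and 891 (96.6%) with skip2 (median -1.06). The authors chose the 1659 genes and labelled them as differentially expressed, naming skip1, skip2 and both subtypes. Their exact rule is not given in the sources used here. The selection names those same samples, so this is no independent evidence of the genes' direction. Alb was lower in both on that scale (-1.78 with skip1 and -1.19 with skip2). Afp, higher in subtype B, was lower with skip2 (-1.11) and nearly level with skip1 (-0.09). Its mean normalized counts were low, 3.26 induced against 8.06 alone with skip2 and 4.67 against 4.74 with skip1. The skip2 groups are also small. Other named genes also went against their direction in subtype B. These were Clec4f (0.33), Aqp1 (0.31) and Kdr (0.07) with skip1, and Igf2bp3 (-0.46), Nr0b2 (0.28) and Cd247 (-0.13) with skip2. The mean counts of Nr0b2 with skip2 were low and went the other way, 2.94 induced against 4.62 alone.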

How the data were processed

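RNA from frozen mouse liver tumours was sequenced from strand-specific libraries, per the labels' protocols. The submitters' processing notes list mm10 as the build and name STAR, RSEM, DESeq2 and FastQC, without versions or settings. One deposited table holds a score: as the numbers themselves show, 1659 selected genes were turned by the authors into z-scores, the 16 subtype and control libraries over 17 libraries and the other 18 apart. The other deposited table holds normalized counts, a non-negative signal by the authors, for 14086 genes in those 18 libraries. It was read as log2(count + 1) for description. Depth is unknown for the z-scored libraries. Columns were matched to samples by title, and no column was left unused.

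Z-scores of 16 libraries (4 subtype A, 9 subtype B, 3 control) were fitted with limma 3.58.1 (R 4.3.3) using a mean for each group, no trend, two-sided tests and Benjamini-Hochberg adjustment over 1659 genes. A gene was called where its adjusted p was below 0.05. The fit took a common spread per gene for all groups. The planned design had expected log-scale values. The exact permutation test ran over 220 assignments, two-sided. The fit was tested on simulated data. Alternatives were array weights, a robust prior, median subtraction, quantile normalization, a filter on spread, only the compared groups, and leaving out each library. Normal scores of ranks and leaving out subtype B replicates 1 and 6, or 2 and 3, together were added after seeing the data.

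Members, lists and the naming rule were chosen with earlier results of these data known. The rule took the largest differences per direction among called genes whose groups did not overlap, and up to 4 called members per list. It also took the largest differences from subtype A, the largest spreads among tumours, and 16 fixed genes, 7 of them measured. The text names part of what it selects, and some genes are not reported here. Outside it, and chosen after their values were seen, are Cyp2b10, Nr0b2, Saa1, Saa2, Orm2, Pkm, Ccnd1, Ajuba, Ankrd1, Epcam, St14, Igf2bp3, Scd2, Cd34, Ciita, H2-Aa, H2-Eb1, Wfdc2, Prom1, 4 uncalled genes and the list members named as exceptions. Gene positions are from GENCODE on mm10, which held 1653 of the 1659 symbols.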

Additional observations from a re-analysis of the deposited data

Results flagged for a closer look

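Single tumours stood far from the other 8 subtype B libraries for 10 of the 114 named genes, by the gap between the extreme library and its neighbour relative to the whole range. Chance marks about 1 in 20 groups this way. Subtype B replicate 6 was the high library for Hal (-0.40), Oat (-0.23), Cyp2c50 (-0.43), Axin2 (2.21), Clec4f (0.0392) and Kdr (-0.13). It was so too for the mean of the lower pericentral (-0.30), periportal (-0.45), conjugation (-0.41) and male-biased (-0.44) genes. No mean of any other list was flagged. Hal is a periportal member, and Oat and Cyp2c50 are pericentral ones, so the flagged means are not separate evidence. For the mean of the 13 hepatocyte markers, however, replicate 3 was nearest to the control (-0.41) and replicate 6 stood at -0.58.

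Replicate 1 was the high library for Acly (0.18), Scd2 (3.20) and Pnpla3 (3.26), all genes of lipid synthesis or storage. Replicate 7 was so for Ccnd1 (0.94). Pnpla3 was named for its large spread among the tumours, and Scd2 and Ccnd1 after their values were seen, so their flags were partly fixed in advance.

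Between the tumour classes 1014 genes differed by limma at the adjusted threshold, which tests their departures from the shared control against each other. Gpnmb (-1.59), Folh1 (-1.26), Cd14 (-1.05), Wfdc2 (-1.01) and Prom1 (-0.91) were higher than the control in both classes by their means and less so in subtype B. The call of Folh1 against the control was lost with array weights and with quantile normalization, and that of Gpnmb with the latter.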

How the results depend on the processing

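Counts against the control kept within 1.5 times of 1653 under every alternative run but the filter on spread, which left fewer genes to test: 828 of 830 were called, 318 higher and 510 lower. Leaving out each library in turn gave 1643 to 1654. Subtracting each library's median moved the median difference of all genes from -2.46 to -0.41 and turned Nr0b2 (0.0549), Saa1 (0.213), Saa2 (0.341) and Orm2 (0.153), all then uncalled, and Cyp2b10, Hamp, Aqp1, Slc30a10, Aqp8 and Ces2e also lost the call there. The subtraction raised every difference from the control by the same amount, so the smallest falls passed 0 and small rises grew. With that setting 1549 genes were called, and with quantile normalization 1608.

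The difference from subtype A depended more on the scaling. Median subtraction gave 588 genes (472 higher, 116 lower), quantile normalization 444 (195 higher, 249 lower) and the filter on spread 517 (150 higher, 367 lower). Leaving out each library gave 764 to 1045, the lowest without subtype A replicate 1. Median subtraction moved the median of all genes from -0.19 to 0.07. The cause was not tested.

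No paired analysis was possible because the labels give no replicate numbers that the groups share. Z-scores, 3 control libraries and the authors' selection of genes limit every result, and unknown depth leaves the precision of low genes open.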
